A study of Mus musculus with 3 samples.

Results

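Natriuretic peptide C and its receptors were taken as the 4 rows Nppc, Npr1, Npr2 and Npr3 of the deposited table, chosen by gene name, and all 4 were present among 24958 genes. Nppc encodes the precursor of C-type natriuretic peptide (CNP), Npr2 its guanylyl cyclase receptor, Npr1 the guanylyl cyclase receptor of the atrial and B-type peptides, and Npr3 a receptor without a cyclase domain that clears these peptides. The genes were described over classes of ovarian cells and over the groups of cell barcodes that the table holds.

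In the ovarian follicle, CNP from granulosa cells (GCs) activates NPR2, and the cGMP made in GCs passes through gap junctions into the oocyte. There cGMP inhibits the phosphodiesterase PDE3A, cAMP stays high and meiosis stays arrested. Luteinizing hormone (LH), or human chorionic gonadotropin (hCG) which acts through the same receptor, ends this arrest before ovulation.

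The data were single-cell RNA-seq (scRNA-seq) profiles of mouse ovary, with 1 library each for ovaries taken 0, 1 and 6 h after an injection of hCG (H0, H1 and H6). The study's methods describe prepubertal Kunming mice primed with pregnant mare serum gonadotropin (PMSG), which drives follicle growth. Whether the same priming applied to every time point, and how many mice or ovaries entered a library, is not given in the sources used here, and no genotype or other treatment is named. Nothing in the table ties a barcode ending (1, 2 or 3) to a time point, so the endings are called barcode sets 1, 2 and 3 and no time point is assigned to them.

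The table held 31776 cells, of which 10384, 9917 and 11475 carried the endings 1, 2 and 3, with medians of 6093, 6352 and 6524 unique molecular identifiers (UMIs) per cell. Between 27 and 46 barcode sequences were shared by any pair of sets. A level is the mean over cells of UMIs per 10000 UMIs of the cell, with a 95% Poisson interval on the summed UMIs, and a ratio carries a 95% binomial interval. These intervals and the limits set by a count of 0 cover counting error only. With 1 library per time point there is no replicate, so no test was possible and no p-value is given, and differences between sets compare those cells and not the time points.

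Classes were named from marker genes of clusters made without the 4 genes. The granulosa-like class held 4190, 4129 and 5185 cells of sets 1, 2 and 3, recognised by markers such as the inhibin subunit gene Inha and the activin antagonist gene Fst. Within it, antral mural-like clusters (Inhba, Cyp19a1, Lhcgr, Mro) held 1634 cells of set 1 and 1226 of set 2, while no cluster of set 3 carried enough of these markers. That absence depended on how cells were grouped, since 425 cells of set 3 were antral mural-like at a finer clustering (Louvain resolution 2) and 3788 by gates on the markers of single cells. Preantral-like clusters (Igfbp5, Wt1, Gatm) held 590, 300 and 633 cells. Theca-like cells (Cyp17a1) numbered 1318, 512 and 753, stroma-like cells (Dcn, Lum, Pdgfra) 3007, 2750 and 3933, and endothelial-like cells (Pecam1, Cdh5) 467, 689 and 463. Expanding cumulus-like clusters held 437 cells of set 2 and 407 of set 3. No oocyte cluster could be named, so the oocyte side of the pathway was not seen here.

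The antral mural-like cells of set 2 were 1 cluster, number 2 of that set. Its 10 leading genes held the luteal marker Ptgfr and no granulosa marker, so it was left out where the granulosa-like class was compared between sets. It made up 12.4% of the cells of set 2. It carried 7 granulosa markers and kept its subtype name, so every antral mural-like value of set 2 rests on this cluster alone. Ratios of the granulosa-like class against set 2 are given without it, with the value that includes it beside them. Leaving it out removes the antral mural-like cells of set 2 alone, since those of set 1 stayed in.

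Nppc lies on chromosome 1 at chr1:86666291-86670571 on the minus strand, Npr1 on chromosome 3 at chr3:90450591-90465866 (minus), Npr2 on chromosome 4 at chr4:43631935-43651244 (plus) and Npr3 on chromosome 15 at chr15:11839896-11907287 (minus), all in GRCm38 with GENCODE M21 gene models. Each receptor gene overlaps an annotated gene of the other strand, Gm16048 at Npr1, Gm12473 at Npr2 and Gm5144 at Npr3. These were counted at 20, 56 and 40 UMIs in the whole table, against 3096, 2986 and 2012 UMIs of Npr1, Npr2 and Npr3. Whether counting used strand is not given in the sources used here.

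The 250 bases upstream of the RefSeq start of Nppc are shown because the Nppc level separated granulosa subtypes and barcode sets (chr1:86670574-86670823, GRCm38.p6, minus strand, written in the direction of the gene). Capitals mark matches to the motifs searched.

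Nppc upstream: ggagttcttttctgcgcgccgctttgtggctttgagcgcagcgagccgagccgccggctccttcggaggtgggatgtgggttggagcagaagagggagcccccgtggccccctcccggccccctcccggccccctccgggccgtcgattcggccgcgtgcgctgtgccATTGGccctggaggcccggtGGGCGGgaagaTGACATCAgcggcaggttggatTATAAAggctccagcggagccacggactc

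On both strands, the TATA box TATAAA was found 29 bases before the start and in 12.4% of the 250-base windows of 32851 RefSeq genes. The GC box GGGCGG, 62 bases before the start, was held by 32.7% of windows and the CCAAT box, on the other strand 82 bases before the start, by 33.8%. The full cAMP response element TGACGTCA and its core TGACG had no match in this window, against 1.55% and 17.8% of windows, and the AP-1 motif TGANTCA had none against 6.75%. The looser form TGACNTCA, which was added after the sequence had been seen, matched 51 bases before the start and in 7.49% of windows. In the same window, Npr1 held 1 CCAAT and 2 GGGCGG matches, Npr3 held 1 CCAAT and 1 TGACG match, and Npr2 held none of these motifs. These matches describe letters and say nothing of binding.

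The ligand gene Nppc had its highest level in antral mural-like GCs. It was 8.98 UMIs per 10000 UMIs in set 1 (95% interval 8.80 to 9.17; 9431 UMIs in 1634 cells) and 5.04 in set 2 (4.88 to 5.20; 4045 UMIs in 1226 cells). The intervals of these antral mural-like values did not reach that of any other class in the same set. By gates, which put 4005 and 4254 cells of sets 1 and 2 in this class, the levels were lower at 5.39 and 2.84, and in set 3 the level was 0.131. At the finer clustering they were 8.69, 4.26 and 0.589 in sets 1, 2 and 3. A UMI of Nppc was seen in 88.8% of the antral mural-like cells of set 1, with a median of 4 and a maximum of 73 UMIs per cell.

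The remaining granulosa subtypes of set 1 were lower, and their pooled values held unlike clusters. The cluster without a subtype (number 3, led by Rgs13 and Krt20) stood at 3.88 (3.73 to 4.03), mitotic GCs (Top2a, Mki67) at 2.45 (2.34 to 2.57), and preantral-like GCs at 0.292 (0.246 to 0.343). The mitotic value pooled cluster 12 at 3.58, near the cluster without a subtype, and cluster 11 at 0.947. In set 2, expanding cumulus-like GCs (Ptx3, Has2, Tnfaip6) stood at 3.59 (3.39 to 3.79), GCs without a subtype at 1.89 (1.81 to 1.98), mitotic GCs at 1.32 (1.23 to 1.41) and preantral-like GCs at 0.342 (0.270 to 0.427). By cluster this order did not hold in set 2, as mitotic cluster 12 stood at 0.333 (0.249 to 0.437), level with the preantral-like GCs, and cluster 9 without a subtype at 0.612 was below mitotic cluster 14 at 1.64. In set 3, expanding cumulus-like GCs stood at 0.238 (0.191 to 0.293), GCs without a subtype at 0.168 (0.151 to 0.187), preantral-like GCs at 0.117 (0.0860 to 0.155) and mitotic GCs at 0.0672 (0.0495 to 0.0891), and the preantral-like interval overlapped both of its neighbours. The GCs without a subtype of set 3 pooled cluster 7 at 0.444, cluster 10 at 0.0980 and cluster 2 at 0.0636, so this order did not hold by cluster either. The preantral-like cells, from smaller follicles by their markers, were thus at the low end of the granulosa subtypes in sets 1 and 2 but not below mitotic GCs in set 3.

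Antral mural-like over preantral-like GCs gave a Nppc ratio of 30.8 in set 1 (26.1 to 36.6) and 14.7 in set 2 (11.8 to 18.7), with a geometric mean of 21.3 (18.5 to 24.6). By gates the ratios were 16.4 (12.8 to 21.4) and 10.3 (8.15 to 13.2), and their geometric mean fell to 13.0. Without cluster 2 of set 2 the set 1 ratio alone remains. The preantral-like level of 0.292 in set 1 lay within the interval of myeloid-like cells (0.147 to 0.405), a class that should lack the gene. In set 2 the preantral-like level of 0.342 lay above that interval (0.0829 to 0.280). Of genes with at least 100 UMIs in the groups compared, 9.87% in set 1 and 12.1% in set 2 were at least 2-fold higher in antral mural-like cells, and Nppc stood above 99.7% and 98.4% of them.

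Inside the antral mural-like class of set 1, cluster 8, which was led by genes that included Mro and Ccn2, reached 10.5 UMIs per 10000 and cluster 15, led by Comp, Tnfsf11 and Cyp19a1, reached 10.1. Cluster 9 was lower at 6.48 and was led by Inhbb, Ihh and Grem1. The plot of levels by cluster shows this spread.

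**Figure D1:**
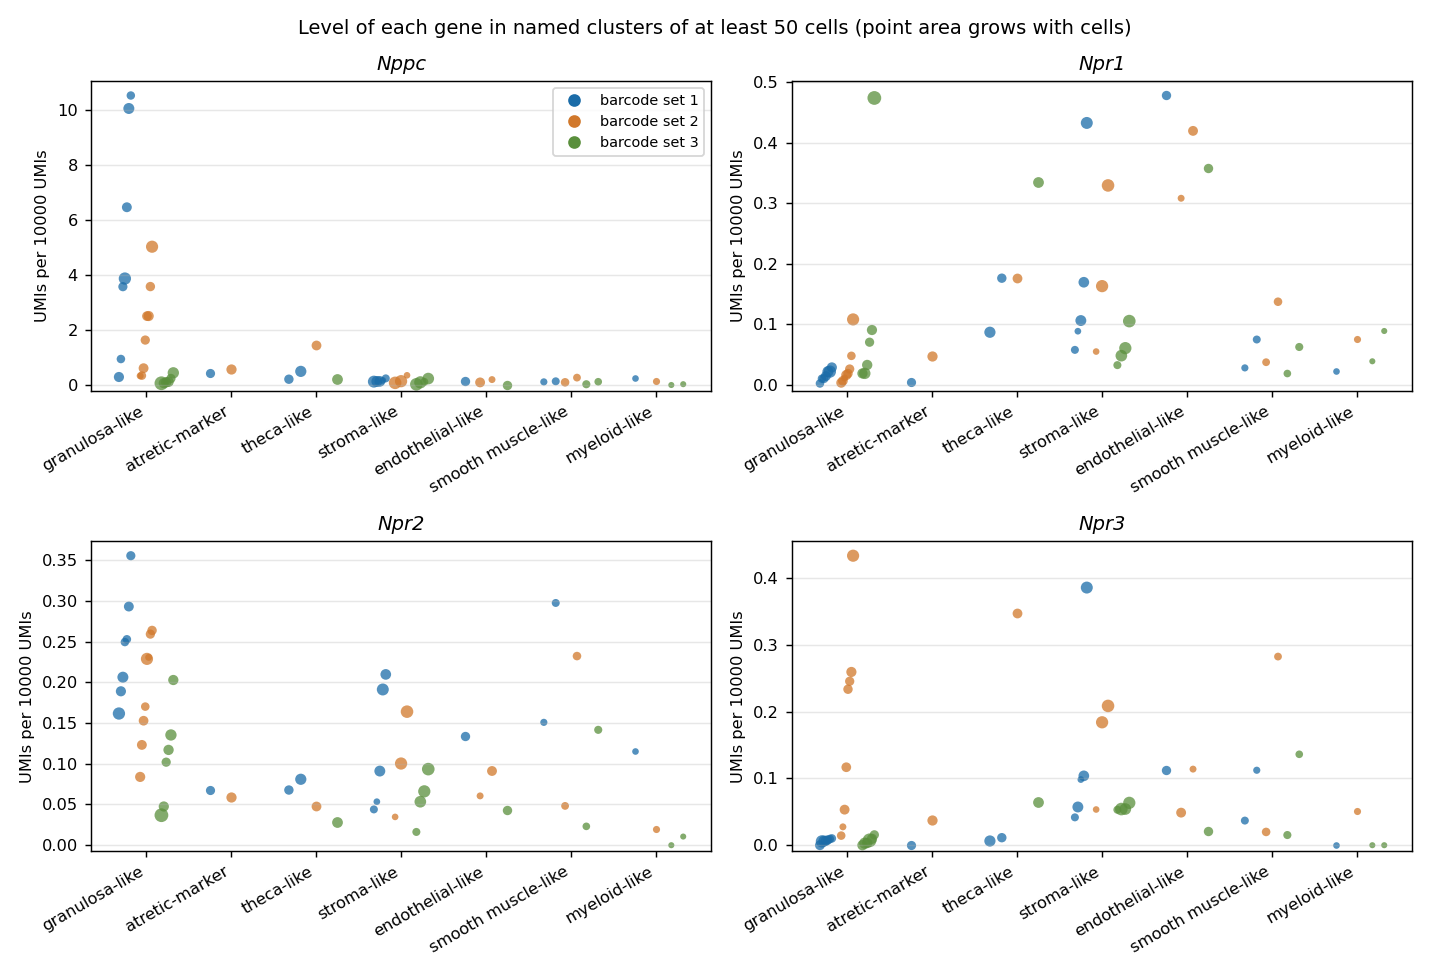
Level of each gene (UMIs per 10000 UMIs, linear axis from 0) in the clusters of at least 50 cells of the classes named on the axis (the luteal-like cluster is not drawn), with barcode sets 1, 2 and 3 in blue, orange and green and point area growing with the number of cells. Nppc was high in granulosa-like clusters of sets 1 and 2, up to 10.5 in set 1, Npr1 reached 0.474 in 1 granulosa-like cluster of set 3, and Npr3 stood above 0.1 in granulosa-like clusters of set 2 alone.

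Over the granulosa-like class as a whole, the Nppc level was 5.13 in set 1 (5.05 to 5.22), 2.82 in set 2 (2.76 to 2.88) and 0.156 in set 3 (0.143 to 0.170). Granulosa-like cells over all other cells of the same set gave ratios of 18.5 (17.5 to 19.6), 8.20 (7.78 to 8.65) and 1.45 (1.29 to 1.64) in sets 1, 2 and 3. The set 3 ratio rested on cluster 7 of that set, which held 199 of its 534 granulosa-like Nppc UMIs and shared the leading genes Pik3ip1, Mlf1 and Angpt2 with the atretic-marker cluster 4 of set 2, a class kept apart from GCs in sets 1 and 2. Without cluster 7 the granulosa-like level of set 3 was 0.0936 against 0.107 in the other cells, a ratio of 0.873 (0.759 to 1.0024). The share of genes at least 2-fold higher in this comparison was 8.84%, 8.26% and 12.6%, and Nppc passed that fold in sets 1 and 2. The geometric mean over the sets was 6.04 (5.76 to 6.34), which hides this spread between sets. Granulosa-like cells held 91.4% of the Nppc UMIs of set 1, 82.8% of those of set 2 and 50.1% of those of set 3. Their shares of the UMIs of all genes were 38.6%, 44.7% and 46.7%, so the set 3 share of Nppc was near that of all genes.

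To compare shares of cells at a like depth, every cell was thinned to 3000 UMIs, which leaves out the 212, 96 and 271 granulosa-like cells of sets 1, 2 and 3 under that depth. A Nppc UMI was then seen in 49.9% of granulosa-like cells of set 1 (48.4 to 51.5, exact binomial), 36.2% of set 2 (34.7 to 37.7) and 3.85% of set 3 (3.33 to 4.42). Without thinning these shares were 63.2%, 53.7% and 7.60%. Myeloid-like cells, taken as a class that should lack the gene, gave thinned shares of 2.53% (0.308 to 8.85), 3.67% (1.01 to 9.13) and 1.03% (0.0261 to 5.61), at median depths of 5104.5, 4987 and 3637 UMIs, and the set 3 share of granulosa-like cells lay within that interval. Endothelial-like cells, whose kind in other vessels is known to make CNP, gave thinned shares of 4.11% in set 1, 3.70% in set 2 and 0 of 342 cells in set 3, which allows a share of cells with a UMI of up to 0.877% by the limit of 3 counts. Median depth was 5970, 6864 and 6511 UMIs in granulosa-like cells and 5325, 5400 and 4789 in endothelial-like cells. Stroma-like cells of set 3 gave 2.79% (2.28 to 3.37), close under the 3.85% of granulosa-like cells there, which was 2.59% (2.12 to 3.12) without cluster 7.

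Set 3 over set 1, the Nppc level of granulosa-like cells stood at a ratio of 0.0304 (0.0278 to 0.0331), or 0.0183 (0.0163 to 0.0203) without cluster 7 of set 3, and 0.113% of the genes tested had a ratio as low. At least 2-fold lower levels were found for 12% of 12365 genes in this comparison and at least 2-fold higher levels for 9.26%, with a median ratio over genes of 0.933. Different clusters held most cells of the class in these sets. In set 1 the largest were number 3 and the antral mural-like number 15, and in set 3 it was number 2 with 2005 cells, led by Npy, Lyve1, Comp and Rnf180.

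The lower level of set 3 was also seen inside the subtypes named in both sets. Mitotic GCs had a set 3 over set 1 ratio of 0.0274 (0.0201 to 0.0364; 48 against 1847 UMIs). Preantral-like GCs had 0.40 (0.282 to 0.558; 48 against 143 UMIs), from a level that was already low in set 1. That level of 0.292 lay within the interval of myeloid-like cells of set 1 (0.147 to 0.405). The preantral-like level of 0.117 in set 3 lay within that of stroma-like cells of set 3 (0.0964 to 0.120). Expanding cumulus-like GCs, named in sets 2 and 3, had a set 3 over set 2 ratio of 0.0665 (0.0530 to 0.0825). The highest granulosa-like cluster of set 3 was number 7, led by Pik3ip1, Prss23 and Bmp2, at a level of 0.444.

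Set 2 over set 1, granulosa-like Nppc gave a ratio of 0.367 (0.354 to 0.380) without cluster 2 of set 2 and 0.549 (0.534 to 0.565) with it. The ratio was thus below 1 in either case, and at least 2-fold lower only without that cluster, since a finer clustering (0.553) and gates (0.529) also fell short of 2-fold. Leaving out that cluster removed all antral mural-like cells of set 2, while those of set 1 stayed in. The Nppc level of antral mural-like cells was 8.98 in set 1 and 5.04 in set 2. In the comparison without cluster 2, the share of genes at least 2-fold lower was 16.5%, at a median ratio over genes of 0.750. There 5.54% of genes had a ratio as low as that of Nppc. Preantral-like GCs did not differ beyond counting error between these sets (ratio 1.17, interval 0.879 to 1.56).

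In theca-like cells, the androgen-producing cells around the follicle, Nppc stood at 0.402 in set 1 (0.372 to 0.434), 1.47 in set 2 (1.38 to 1.57) and 0.236 in set 3 (0.201 to 0.275). Set 2 was the highest, with a set 2 over set 1 ratio of 3.66 (3.31 to 4.05), whereas the granulosa-like ratio was below 1. The class of set 1 pooled cluster 2 at 0.211 and cluster 10 at 0.496, each below the set 2 level. A ratio of at least 2-fold higher was found for 5.67% of genes and of at least 2-fold lower for 23.7% in theca-like cells, where the median ratio was 0.702.

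The theca-like Nppc UMIs of set 2 were unevenly spread. Of 922 UMIs, 71.9% lay in 39 cells with at least 5 Nppc UMIs each, and 1 cell held 90, more than the maximum of 41 in any granulosa-like cell of that set. In set 1, 20 such cells held 27.3% of the theca-like Nppc UMIs. Theca-like cells with fewer than 5 Nppc UMIs, a split made on Nppc itself, stood at 0.542 in set 2 and 0.313 in set 1. These 39 cells had an Inha level of 11.7 and a Cyp17a1 level of 49.8, against 11.7 and 45.7 in the other 473 theca-like cells of set 2. Other granulosa markers were higher in them, Fst at 1.28 against 0.574 and Inhba at 2.39 against 1.48, and their median depth was 13882 against 10485 UMIs. Their median doublet score was 0.0550 against 0.0427. Over the whole class, Inha in theca-like cells was 16.2% of its granulosa-like level in set 1 and 18.3% in set 2, while Nppc was 7.84% and 52.2%. Inha thus did not differ with Nppc in these cells while Fst and Inhba did. Without the 8% of cells with the highest doublet scores, theca-like Nppc was 0.381 in set 1 and 1.49 in set 2, near the values with them. How many of the 39 cells this step left out was not counted, and the part of doublets was not tested. A cut at 5 Nppc UMIs also favours cells of higher depth.

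Stroma-like cells carried Nppc at 0.138 (0.122 to 0.154), 0.117 (0.103 to 0.132) and 0.108 (0.0964 to 0.120) in sets 1, 2 and 3. Endothelial-like cells stood at 0.131 (0.0950 to 0.177) and 0.117 (0.0937 to 0.145) in sets 1 and 2, overlapping stroma-like cells, and at 0.0133 (0.00362 to 0.0340; 4 UMIs) in set 3. Without the 8% highest doublet scores the endothelial-like value of set 2 was 0.0771. As shares of the granulosa-like level these were 2.68% and 2.56% in set 1, near the 3.18% and 3.14% that Inha showed in the same classes. The stroma-like and endothelial-like values of set 1 were thus near those of a granulosa marker, and the part of free RNA in them was not tested. In set 3 stroma-like Nppc was 69.2% of the granulosa-like level, or 115% without cluster 7, against 2.86% for Inha, with 324 UMIs, and endothelial-like Nppc was 8.52%. Cluster 4 of set 3, a stroma-like cluster, had the highest stroma-like level of that set at 0.234.

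**Figure D2:**
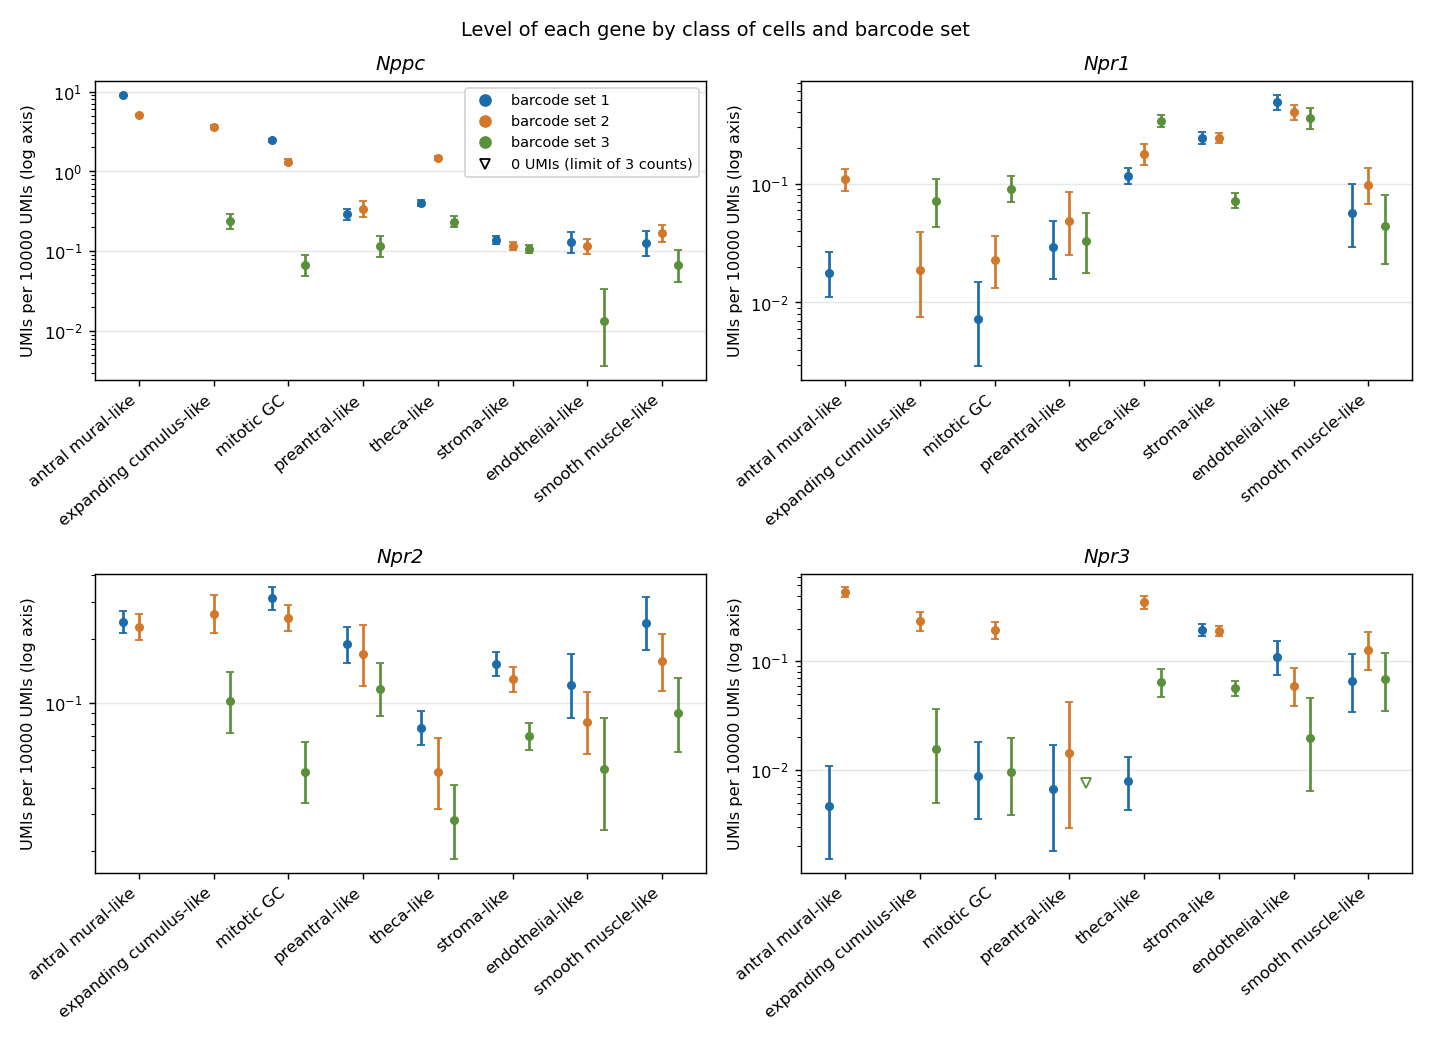
Level of each gene (UMIs per 10000 UMIs, log axis) by class and barcode set, with 95% Poisson intervals that cover counting error, and open triangles at the limit of 3 counts where no UMI was seen. Nppc differed between antral mural-like (8.98 and 5.04) and preantral-like GCs (0.292 and 0.342), Npr1 was highest in endothelial-like cells in sets 1 and 2 among classes of at least 50 cells, and Npr3 was far higher in granulosa-like and theca-like cells of set 2 than of set 1.

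Npr2, the CNP receptor, was seen at a low level in most classes and was higher in GCs than in the other cells. Its granulosa-like level was 0.222 in set 1 (0.206 to 0.238), 0.188 in set 2 (0.174 to 0.202) and 0.0902 in set 3 (0.0816 to 0.0995). Granulosa-like over all other cells gave 1.79 (1.60 to 2.01), 1.57 (1.39 to 1.79) and 1.48 (1.27 to 1.74), with a geometric mean of 1.61 (1.49 to 1.74). All 3 ratios lay above 1 and under 2-fold.

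Among granulosa subtypes of set 1, Npr2 was highest in mitotic GCs at 0.312 (0.275 to 0.352), above antral mural-like GCs at 0.242 (0.215 to 0.272) and preantral-like GCs at 0.189 (0.154 to 0.230). By cluster this order did not hold, as mitotic clusters 12 and 11 stood at 0.356 and 0.253 and antral mural-like cluster 9 at 0.293. In set 2 mitotic GCs stood at 0.252 (0.218 to 0.291), expanding cumulus-like GCs at 0.264 (0.214 to 0.322) and antral mural-like GCs at 0.229 (0.198 to 0.264), and these overlapped. Set 3 went the other way, with mitotic GCs the lowest of its subtypes at 0.0476 (0.0337 to 0.0653), under preantral-like GCs at 0.117 (0.0872 to 0.154). The antral mural-like over preantral-like ratio of Npr2 was 1.28 (1.02 to 1.62) in set 1 and 1.34 (0.945 to 1.957) in set 2. Npr2 therefore differed little between these subtypes, across which Nppc differed by over 10-fold.

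Outside GCs, smooth muscle-like cells (Acta2, Myh11) had Npr2 at 0.240 (0.177 to 0.317) in set 1, overlapping GCs. Stroma-like cells stood at 0.153 (0.134 to 0.174), endothelial-like cells at 0.122 (0.0852 to 0.170) and theca-like cells at 0.0766 (0.0632 to 0.0921) in set 1. Stroma-like and endothelial-like values overlapped, and theca-like cells were below stroma-like cells in every set.

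Set 3 over set 1, Npr2 in granulosa-like cells gave 0.407 (0.360 to 0.460), and 7.59% of genes had a ratio as low. It stood at 0.153 (0.106 to 0.215) in mitotic GCs, 0.619 (0.433 to 0.875) in preantral-like GCs, 0.367 (0.230 to 0.566) in theca-like cells and 0.456 (0.374 to 0.555) in stroma-like cells. The direction was thus the same in GCs, theca-like and stroma-like cells. Set 2 over set 1, granulosa-like Npr2 gave 0.768 (0.684 to 0.862), near the median ratio of 0.750 over genes, and 0.847 with cluster 2 of set 2.

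Within set 3, Npr2 was 0.203 in cluster 10, a granulosa-like cluster led by Ihh and Pclaf with Amh, and 0.0368 in cluster 2. A Npr2 UMI was seen in 5.56%, 5.58% and 2.58% of thinned granulosa-like cells of sets 1, 2 and 3, against 2.14%, 0.600% and 0.945% of theca-like cells. Smooth muscle-like cells gave 6.13%, 3.49% and 2.87%, so GCs were above theca-like cells in all 3 sets at a like depth but not above smooth muscle-like cells in sets 1 and 3.

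Detection of the receptor was also compared between cells with and without the ligand. Among thinned antral mural-like cells of set 1, 5.59% of the 1198 with a Nppc UMI had a Npr2 UMI (4.36 to 7.05), against 7.73% of the 375 without (5.24 to 10.9). In set 2 these shares were 5.75% (4.12 to 7.78) and 6.87% (4.86 to 9.38). The intervals overlapped in both sets, so at this depth no difference in Npr2 detection between cells with and without Nppc was detectable. Thinned endothelial-like cells of set 1 gave a Npr2 share of 4.11% (2.37 to 6.59), which overlapped that of Nppc-positive cells, so expression of both genes in 1 cell cannot be read from these shares.

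Npr1, the receptor of the atrial and B-type peptides, was highest in endothelial-like cells of sets 1 and 2 among classes of at least 50 cells. Its levels there in sets 1, 2 and 3 were 0.485 (0.418 to 0.560), 0.398 (0.344 to 0.457) and 0.355 (0.288 to 0.434). Endothelial-like over all other cells gave 4.76 (4.02 to 5.61), 3.34 (2.84 to 3.92) and 2.27 (1.83 to 2.80). At least 2-fold higher levels were found for 12.3%, 15.3% and 11.5% of genes in these comparisons, and Npr1 passed 2-fold in every set.

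Stroma-like cells carried Npr1 at 0.242 (0.217 to 0.269), 0.243 (0.219 to 0.268) and 0.0720 (0.0622 to 0.0830) in sets 1, 2 and 3. Cluster 0 of set 1, led by Col12a1, Frem1 and Wnt4, reached 0.433, and cluster 1 of set 2, led by Tcf21, Frem1 and Lrrc17, reached 0.330. The stroma-like level was the same within counting error in sets 1 and 2 (ratio 1.00, interval 0.865 to 1.17) and lower in set 3 than in set 1 (0.298, interval 0.248 to 0.357). Cluster 0 of set 1 held 198 of the 335 stroma-like Npr1 UMIs of that set, and without it the ratio was 0.580 (0.464 to 0.728), which is not past 2-fold. Cluster 0 of set 3, which shared its leading genes Sfrp1 and Ogn, had the highest stroma-like Npr1 level of set 3 at 0.106, and without both clusters the ratio was 0.429 (0.325 to 0.564).

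In theca-like cells the order of Npr1 ran from set 1 at 0.117 (0.1001 to 0.135) over set 2 at 0.176 (0.144 to 0.214) up to set 3 at 0.335 (0.296 to 0.377). Theca-like over all other cells gave 0.975 (0.821 to 1.15), 1.29 (1.04 to 1.59) and 2.20 (1.91 to 2.51), with a geometric mean of 1.40 (1.27 to 1.55). Theca-like cells of set 3 were the highest class together with endothelial-like cells, as their intervals overlapped. In set 1 the theca-like ratio did not differ from 1 beyond counting error. The class of set 1 pooled cluster 2, led by Mgat4c, Mia and Adh1, at 0.177 (79 UMIs) and cluster 10, led by Cyp17a1, Gsta2 and Insl3, at 0.0872 (98 UMIs), whereas sets 2 and 3 held 1 theca-like cluster each. The theca-like cluster of set 2, at 0.176, shared the leading genes Cyp17a1, Gsta2, Ren1, Stk32a and Sct with cluster 10 of set 1, above which it stood, and Mgat4c with cluster 2 of set 1, beside which it stood.

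In GCs Npr1 was near the limit of detection in set 1, at 0.0189 (0.0145 to 0.0243; 61 UMIs in 4190 cells), and at 0.0444 (0.0371 to 0.0526) in set 2. In set 3 it was 0.209 (0.194 to 0.225; 731 UMIs). The set 3 over set 1 ratio was 11.1 (8.51 to 14.6), above 98.5% of genes, and thinned cells with a UMI were 0.503% (0.307 to 0.775) of set 1 GCs against 5.35% (4.74 to 6.02) of set 3 GCs. Against set 2, the ratio of set 3 was 12.1 (8.95 to 16.6) without cluster 2 of set 2 and 4.72 (3.91 to 5.72) with it. Set 2 over set 1 was 0.916 (0.611 to 1.37) without that cluster and 2.35 (1.72 to 3.23) with it.

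This Npr1 signal of set 3 came mostly from cluster 2 of that set, whose level was 0.474. It held 606 of the 731 granulosa-like Npr1 UMIs of set 3, and the ratio without it was not computed. Clusters 7 and 10 of set 3 stood at 0.0192 and 0.0191, near the 0.0189 of set 1 GCs. Cluster 2 carried 5 granulosa markers, but none was among its 10 leading genes. These included Lyve1, which also led endothelial-like cluster 21 of set 1 and cluster 20 of set 2. The granulosa-like cells of set 3 without a subtype, to which cluster 2 belongs, stood at 0.277 (0.256 to 0.299), mitotic GCs at 0.0909 (0.0704 to 0.115) and preantral-like GCs at 0.0331 (0.0176 to 0.0566). In set 1, mitotic GCs stood at 0.00720 (0.00290 to 0.0148; 7 UMIs) and preantral-like GCs at 0.0291 (0.0159 to 0.0488). The higher level of set 3 was thus also seen in mitotic GCs, outside cluster 2, but not in preantral-like GCs. In set 2 the antral mural-like cluster stood at 0.108 (0.0867 to 0.134), above the 0.0173 (0.0127 to 0.0231) of the other GCs. This cluster and cluster 2 of set 3 shared the leading genes Comp, Npy and Nts. Myeloid-like cells of set 3 gave 0.0644 (0.0236 to 0.140; 6 UMIs), below the level of cluster 2.

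Npr3, the clearance receptor, differed the most between sets of the 3 receptors. In granulosa-like cells its level was 0.00597 in set 1 (0.00378 to 0.00896; 23 UMIs), 0.238 in set 2 (0.221 to 0.256; 743 UMIs) and 0.00609 in set 3 (0.00405 to 0.00880; 28 UMIs). The set 2 over set 1 ratio was 26.1 (17.1 to 41.7) without cluster 2 of set 2 and 39.9 (26.4 to 63.3) with it. At least 2-fold higher levels were found for 5.53% of genes in that comparison, and Npr3 stood above 99.6% of them. Sets 1 and 3 did not differ beyond counting error (ratio 1.02, interval 0.566 to 1.85), from too few UMIs to be counted among the genes tested.

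Within set 2, the antral mural-like GCs had the highest Npr3 level at 0.433 (0.391 to 0.479), followed by expanding cumulus-like GCs at 0.233 (0.189 to 0.285), mitotic GCs at 0.193 (0.160 to 0.229) and GCs without a subtype at 0.149 (0.125 to 0.175). The antral mural-like interval reached none of these, and each of the other values overlapped the next. By cluster the spread was wider, with cluster 5 without a subtype at 0.259, mitotic cluster 14 at 0.245 and mitotic cluster 12 at 0.0275. Preantral-like GCs were low in all 3 sets, with 4 UMIs in set 1, 3 UMIs at a level of 0.0144 (0.00296 to 0.0420) in set 2, and 0 UMIs in 633 cells of set 3, which allows a level of up to 0.00756 by the limit of 3 counts. In set 2 the antral mural-like over preantral-like ratio of Npr3 was 30.2 (10.2 to 147), resting on those 3 UMIs.

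In theca-like cells Npr3 was also highest in set 2, with 0.00794 (0.00434 to 0.0133; 14 UMIs) in set 1, 0.348 (0.301 to 0.3997; 200 UMIs) in set 2 and 0.0640 (0.0475 to 0.0844; 50 UMIs) in set 3. The set 2 over set 1 ratio was 43.8 (25.5 to 81.7). Set 3 lay between the other sets and overlapped neither, unlike in granulosa-like cells, where sets 1 and 3 overlapped. Thinned shares of theca-like cells with a Npr3 UMI were 0.306%, 9.80% and 1.62%.

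In stroma-like cells set 2 did not stand above set 1. Npr3 there was 0.194 (0.171 to 0.219), 0.191 (0.171 to 0.214) and 0.0570 (0.0486 to 0.0665) in sets 1, 2 and 3, and cluster 0 of set 1, the same cluster that was high in Npr1, reached 0.386. Without that cluster the set 1 level was 0.0759 and the set 3 over set 1 ratio 0.751 (0.576 to 0.984), against 0.294 (0.240 to 0.359) with it. Without cluster 0 of set 3 as well, the ratio was 0.773 (0.577 to 1.04), and between these clusters alone 0.140 (0.102 to 0.190). Stroma-like over all other cells gave 11.1 (8.90 to 14.0), 0.943 (0.829 to 1.07) and 3.50 (2.71 to 4.55) in sets 1, 2 and 3. The geometric mean of 3.33 (2.94 to 3.76) thus joins sets with a high ratio and a set in which stroma-like cells did not differ from the rest. Endothelial-like cells stood at 0.109, 0.0596 and 0.0197 in sets 1, 2 and 3, from 34, 27 and 5 UMIs.

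**Figure D3:**
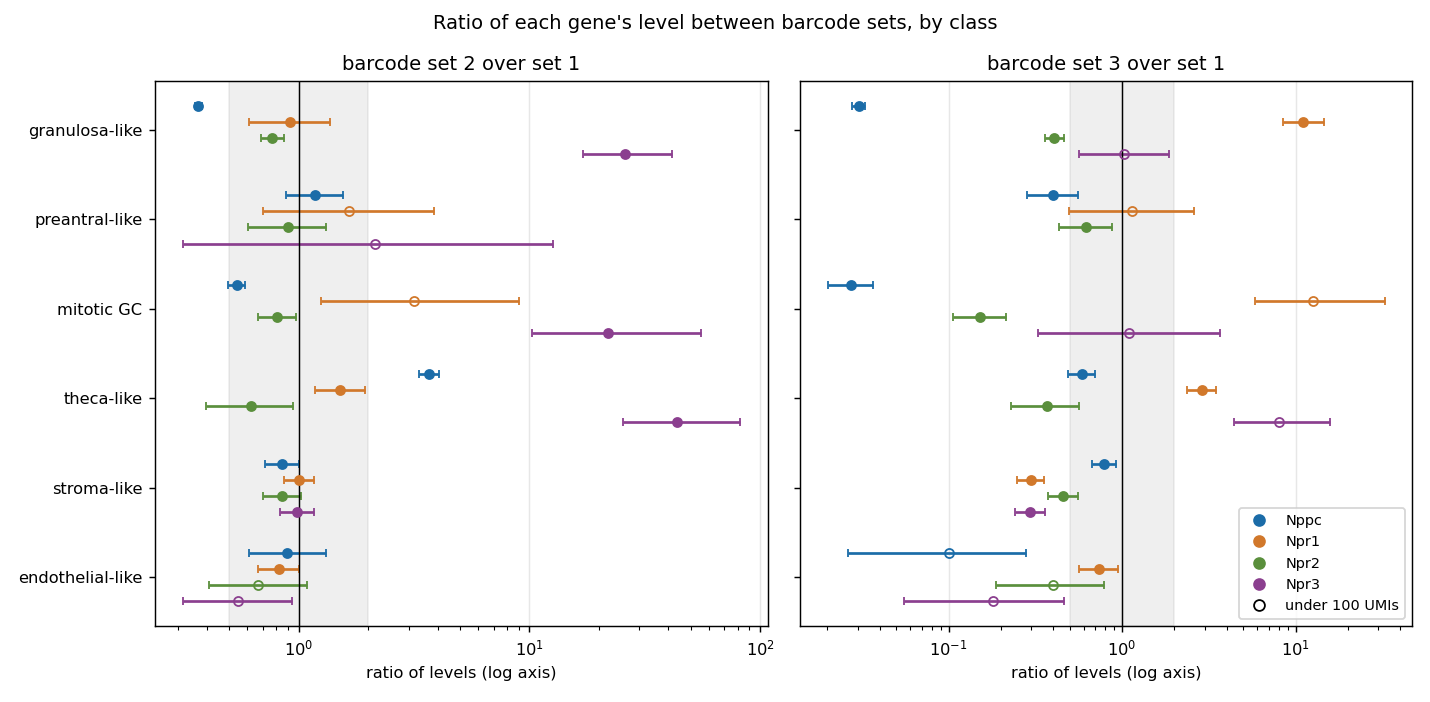
Ratio of each gene's level between barcode sets (log axis, 95% binomial intervals for counting error) by class, with set 2 over set 1 at left and set 3 over set 1 at right, open points under 100 UMIs and grey bands within 2-fold. Granulosa-like cells leave out cluster 2 of set 2 (with it, Nppc in set 2 over set 1 was 0.549), and Npr3 in preantral-like cells of set 3 is not drawn because no UMI was seen. That cluster held all antral mural-like cells of set 2, and those of set 1 were kept. At left Npr3 reached 26.1 in granulosa-like and 43.8 in theca-like cells, and at right Nppc stood at 0.0304 and Npr1 at 11.1 in granulosa-like cells.

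Counted over the members, granulosa-like cells of set 2 over set 1 had all 4 genes above 100 UMIs, with Npr3 at least 2-fold higher and Nppc at least 2-fold lower, among 5.53% and 16.5% of all genes. With cluster 2 of set 2, Npr3 and Npr1 were at least 2-fold higher and no member was at least 2-fold lower, among 6.12% and 21.1% of genes. In set 3 over set 1, 3 of 4 members had enough UMIs, with Npr1 at least 2-fold higher and Nppc and Npr2 at least 2-fold lower, where 21.2% of all genes changed by 2-fold in either direction. In theca-like cells of set 2 over set 1, Nppc and Npr3 were at least 2-fold higher, among 5.67% of genes. In theca-like cells of set 3 over set 1, Npr1 was at least 2-fold higher and Npr2 at least 2-fold lower, among 9% and 13.9% of genes. Npr3 had too few UMIs to be counted there, with a level of 0.00794 in set 1 (14 UMIs) and 0.0640 in set 3 (50 UMIs). In stroma-like cells of set 3 over set 1, Npr1, Npr2 and Npr3 were at least 2-fold lower, among 13.2% of genes, and Nppc stood at 0.784 (0.667 to 0.921). Without cluster 0 of set 1, none of the 3 receptors passed 2-fold there, with Npr2 at 0.539 (0.429 to 0.678). Without cluster 0 of sets 1 and 3, Npr1 at 0.429 and Npr2 at 0.436 were past 2-fold, and Npr3 at 0.773 was not. Between these clusters alone, the ratios of Npr1, Npr2 and Npr3 were 0.244, 0.489 and 0.140, all past 2-fold. The share of all genes past 2-fold was not computed for the stroma-like comparisons that leave out or single out these clusters. Their counts of members thus have no background beside them. The comparisons of sets 2 and 3 share set 1.

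Over the 60 clusters of at least 50 cells, the level of Nppc, as log2 of the level plus 0.05, was most like that of Mro (Pearson r = 0.91), followed by Prkar2b (0.89), Alms1 (0.88), Gm4926 (0.88) and Gm49024 (0.87), among 12219 genes. Mro is 1 of the antral mural markers used to name clusters, and Prkar2b encodes a regulatory subunit of the cAMP-dependent protein kinase. The genes most like Npr1 were Cd34, Ramp2, Jcad, Hdac7 and Dchs1 (0.73 to 0.69), of which Cd34 and Ramp2 are genes of the vascular endothelium. Those most like Npr2 included Tom1l2, Pomt1, Dsel and Zdhhc1 (0.74 to 0.71), and those most like Npr3 were Zfp948, Spry2, Gpcpd1, Coq10b and Gm6225 (0.81 to 0.72). Spry2 encodes a feedback inhibitor of receptor tyrosine kinase signalling. Between the members, r was 0.49 for Nppc with Npr2, -0.49 for Nppc with Npr1 and 0.15 for Nppc with Npr3. The points share 3 libraries and clusters of 1 set share cell types, so these values describe the table.

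The other genes of the pathway were taken from a list of 34, of which 33 were in the table and Ostn was not analysed here. The related ligand genes Nppa and Nppb were at or near 0, with 10 UMIs of Nppa in the whole table and no class of a set above 0.00388 UMIs per 10000 for either gene. In granulosa-like cells of set 3 over set 1, 7 of 23 list genes with enough UMIs were at least 2-fold higher and 3 at least 2-fold lower, beside 9.26% and 12% of all genes, with a median ratio of 1.06 against 0.933 over all genes. In set 2 over set 1, 4 of 22 were higher and 2 lower (Pde1a and Lhcgr), beside 5.53% and 16.5% of all genes, with a median of 0.800 against 0.750. With cluster 2 of set 2, the same 4 were higher and 3 were lower (Pde1a, Gucy1a1 and Pde6d), beside 6.12% and 21.1%, with a median of 0.787 against 0.711. Some list genes were chosen with results of these data known, so the counts are a description.

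Prkg2, which encodes a cGMP-dependent protein kinase, had the highest set 3 over set 1 ratio of the list in granulosa-like cells, from 0.00372 to 2.09 UMIs per 10000 (12 and 8153 UMIs, ratio 563). It was also among the 10 leading genes of cluster 2 of set 3, the cluster in which Npr1 was high. Furin, whose protease processes the CNP precursor, stood at a ratio of 3.64 (3.39 to 3.92) and Mme, which encodes the peptide-degrading neprilysin, at 0.350 (0.298 to 0.411). Gja1, the connexin 43 gene of GC gap junctions, stood at 24.9 in set 1, 18.3 in set 2 and 5.86 in set 3, a set 3 over set 1 ratio of 0.235 (0.232 to 0.238). In the same contrast, Prkg2 was also at least 2-fold higher and Mme at least 2-fold lower in theca-like and stroma-like cells. Furin was higher by that fold in theca-like cells, and Gja1 lower in theca-like and endothelial-like cells. These differences were thus not particular to GCs, and the part of free RNA was not tested.

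Among phosphodiesterase genes, Pde10a stood at 0.0894 in granulosa-like cells of set 1, 18.9 in set 2 and 0.316 in set 3. Its set 2 over set 1 ratio of 211 (187 to 238) went with Areg at 349 (264 to 472), Ereg at 756 and Btc at 19.97 (16.6 to 24.3), which encode ligands of the epidermal growth factor receptor. With cluster 2 of set 2 these ratios were 216 for Pde10a, 823 for Areg, 1874 for Ereg and 33.1 for Btc. Areg, Ereg and Pde10a were also at least 2-fold higher in set 2 over set 1 in endothelial-like, stroma-like and theca-like cells, so these high ratios were not particular to GCs and the part of free RNA was not tested. Pde1a gave 0.318 (0.282 to 0.358) in set 2 over set 1, or 0.293 with cluster 2 of set 2, and 1.06 (0.990 to 1.13) in set 3 over set 1.

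Lhcgr, the LH receptor gene, stood at 1.17 in granulosa-like cells of set 1, with a ratio of 0.224 (0.206 to 0.243) in set 2 without cluster 2 of that set and 0.230 (0.214 to 0.247) in set 3. With cluster 2 included its set 2 level was 0.832, a ratio of 0.712 (0.676 to 0.750), which was no longer past 2-fold. In set 3 over set 1, Lhcgr was also at least 2-fold lower in theca-like, stroma-like and endothelial-like cells. The soluble guanylate cyclase subunit genes Gucy1a1 and Gucy1b1, which make cGMP in response to nitric oxide, stood within 2-fold of set 1 at 0.545 and 0.671 in set 3. The genes of IMP dehydrogenase for GMP supply, Impdh1 and Impdh2, stayed between 0.779 and 1.33 in both comparisons. Pde3a, the phosphodiesterase gene through which cGMP acts in the oocyte, stood at 0.0116, 0.00610 and 0.00400 in granulosa-like cells of sets 1, 2 and 3 and was highest in smooth muscle-like cells, at 1.01, 0.940 and 0.771.

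**Figure D4:**
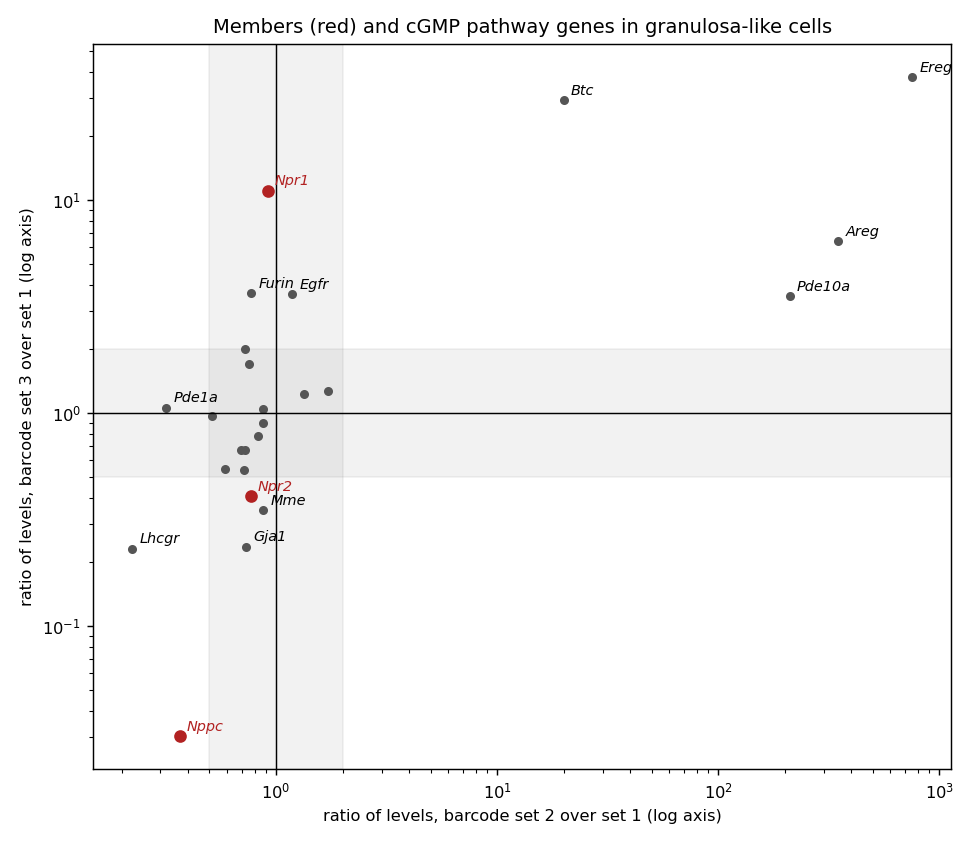
Ratio of levels in granulosa-like cells, set 2 over set 1 (x, log axis) against set 3 over set 1 (y, log axis), for members in red and list genes in grey with at least 100 UMIs in both comparisons, which share set 1, and with names outside the grey 2-fold bands. Cluster 2 of set 2, which held the antral mural-like cells of that set, is left out. Nppc lies lowest on the y axis at 0.0304. On the x axis it lies at 0.367, with Lhcgr and Pde1a further left, while Pde10a, Areg, Ereg and Btc lie far to the right.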

How the data were processed

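Single-cell RNA-seq libraries of mouse ovary at 3 time points after hCG (1 library each) were analysed from 1 deposited table. The authors deposited natural log values, ln(1 + UMIs per 10000 UMIs of the cell), for 31776 cells. Cell Ranger, Seurat and mm10 are named in the submitters' processing notes without versions. Totals per cell came back as exactly 10000, and UMIs were recovered as whole numbers for 100% of values within 0.01.

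Each barcode set was clustered separately without the 4 genes (2000 variable genes, 30 principal components, 15 neighbours, Louvain resolution 1; Python 3.11.15, scikit-learn 1.9.0, igraph 0.11.9). A cluster was named "X-like" from at least 3 markers, detected in 10% of its cells and 1.5 times the median over clusters. These thresholds were set after clusters had been seen. A doublet caller (scanpy 1.11.5) marked 0.135% of cells, far below the rate it was set to expect. No doublets were removed, and this low count does not show that doublets were rare. Cells under 3000 UMIs were left out of thinned shares. Intervals are exact Poisson, or binomial (Clopper-Pearson), at 95%. Folds were counted for genes with at least 100 UMIs in the groups compared. The ratio step was run on simulated Poisson sums of counts. That run took ratios of sums and held no spread between cells, so it does not test the intervals of means over cells.

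The members and lists were chosen with earlier results of these data known. Genes named were the members, the pathway list, class markers, leading genes of clusters described and the 5 genes most like each member, of which 1 is not reported here. Genes leading a cluster were named after values were seen.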

Additional observations from a re-analysis of the deposited data

Results flagged for a closer look

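The between-set ratio of a gene went in opposite directions in 2 classes, past 2-fold in each and with intervals on either side of 1, in 4 cases. With 1 library per time point, none of these differences was tested. Nppc, set 2 over set 1, was 3.66 in theca-like cells and 0.367 in granulosa-like cells, a quotient of 9.99. With cluster 2 of set 2 the granulosa-like ratio was 0.549, at Louvain resolution 2 it was 0.553, and with gates it was 0.529, each short of 2-fold, so this case was lost under these settings. The value of 0.367 leaves antral mural-like cells in set 1 alone. Theca-like cells with fewer than 5 Nppc UMIs stood at 0.542 in set 2 and 0.313 in set 1, so the theca-like ratio depended on few cells. Npr1, set 3 over set 1, was 11.1 in granulosa-like cells and 0.298 in stroma-like cells, a quotient of 37.1. The same contrast of Npr1 was 2.87 in theca-like cells, a quotient of 9.64 to stroma-like cells. Npr1, set 3 over set 2, was 12.1 in granulosa-like and 0.297 in stroma-like cells, a quotient of 40.7, and it shares set 3 with the contrast before. With cluster 2 of set 2 the granulosa-like ratio was 4.72 (3.91 to 5.72), in the same direction and past 2-fold. Cluster 2 of set 3 held 606 of the 731 granulosa-like Npr1 UMIs of that set. Each of these granulosa-like ratios thus rests mostly on it, and no ratio without it was computed. The stroma-like ratio of set 3 over set 1 was 0.580 without cluster 0 of set 1. Both cases that rest on it were thus lost when that cluster alone was left out. Without cluster 0 of sets 1 and 3 the ratio was 0.429 (0.325 to 0.564). Between these clusters alone it was 0.244 (0.190 to 0.311), so both cases were kept in either comparison.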

How the results depend on the processing

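No paired analysis was possible because each time point had 1 library, and leaving out a replicate could not be run. Of 69 alternative values of the 9 ratios, 49 stayed within the main 95% interval, 20 left it, 3 of them by over 1.5 times, and 0 changed side of 1. Of 336 alternative levels 105 left their interval and 44 moved by over 1.5 times, 42 of these from the deposited log values, and of 48 shares of cells at 1500 instead of 3000 UMIs 42 and 39 did so, as fewer UMIs per cell are drawn. The Nppc ratio of granulosa-like over other cells was 4.86 with summed UMIs, 5.25 at Louvain resolution 2, 6.67 with per-cell gates, 6.53 in cells of at least 2000 UMIs, 6.503 without the 8% highest doublet scores and 5.10 without cluster 7 of set 3, also added after seeing the data. Antral mural-like over preantral-like Nppc was 13.0 with per-cell gates. Granulosa-like Nppc of set 2 over set 1 was 0.553 at resolution 2, 0.529 with gates, 0.354 without high doublet scores and 0.549 with cluster 2 of set 2, a setting added after seeing the data. Set 3 over set 1 was 0.0355 from the deposited log values, 0.0263 at resolution 2 and 0.0183 without cluster 7. Granulosa-like over other Npr2 was 2.13 with summed UMIs and 1.82 from log values, and Npr2 of set 2 over set 1 was 0.872 with gates. Theca-like over other Npr1 was 1.60 with summed UMIs and 1.77 from log values, and stroma-like over other Npr3 was 2.88 with summed UMIs. Leaving the 50 most abundant genes out of the totals moved none of the 9 ratios out of its interval. Granulosa-like shares exceeded stroma-like shares in 8 of 12 gene and set pairs at 3000 and at 1500 UMIs per cell. The 2-fold count of list genes in set 2 over set 1 was 6 or 7 under every setting. Depth limits the receptors most, as Npr3 rested on 23 UMIs in granulosa-like cells of set 1.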

Other observations

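Clusters that could not be named also carried the members. Cluster 13 of set 1 (143 cells, median depth 823 UMIs) had a Nppc level of 2.75 (2.03 to 3.65; 48 UMIs), and its leading genes were the mitotic genes Pbk, Ube2c and Pclaf. It carried 7 granulosa markers and was left unnamed for its low depth, so it counted among the other cells in the granulosa-like ratios. Cluster 7 of set 2 (359 cells, median depth 918 UMIs) had Npr2 at 0.343 (0.183 to 0.586; 13 UMIs). Its Npr3 level was 0.362 (0.215 to 0.572; 18 UMIs). Its leading genes mixed Icam2, Gja4 and Cldn5 with the mitotic genes Birc5, Ube2c and Cenpa. It carried stroma markers and 6 granulosa markers and was left unnamed for its low depth. The atretic-marker clusters (Itih5, Cald1, Ghr), which held 395 cells of set 1 and 613 of set 2, had Nppc at 0.429 (0.348 to 0.524) and 0.598 (0.522 to 0.681), between preantral-like and mitotic GCs. A class of 20 epithelial-like cells in set 2 had Npr1 at 0.709. The 68 luteal-like cells of set 3 had 9 UMIs of Npr1 and 2 of Nppc.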
